A study of Homo sapiens with 9 samples.

Results

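The genes described here encode the nuclear-encoded subunits of the mitochondrial respiratory chain and the ATP synthase. They were chosen by symbol among the protein-coding rows of the deposited count table: NDUFA, NDUFB, NDUFC, NDUFS and NDUFV followed by a number (complex I), SDHA to SDHD (complex II), UQCR genes and CYC1 (complex III), CYCS (cytochrome c), COX4 to COX8 genes (complex IV) and ATP5 genes (complex V). The rule found 89 genes of 57905 rows, with 37 in complex I, 4 in complex II, 10 in complex III, 1 for cytochrome c, 17 in complex IV and 20 in complex V. NDUFA4 stands under complex I by its symbol, although its protein is known as a subunit of complex IV, and the acyl carrier NDUFAB1 lies outside the symbol rule.

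All 9 libraries came from A549, a long-established cell line from a human lung adenocarcinoma, grown in medium with 5% serum, and the study asks how the polyol pathway relates to the aggressiveness of cancer cells. The 3 groups of 3 libraries were cells with a short hairpin RNA (shRNA) against AKR1B1 (aldose reductase, which turns glucose into sorbitol), cells with an shRNA against SORD (sorbitol dehydrogenase, which turns sorbitol into fructose), and control cells. Control libraries are called plko in their titles and scrambled controls under treatment, so whether a scrambled hairpin or an empty vector was used is not settled. Each target has a single hairpin label, so the effect of the hairpin sequence itself and that of losing its target cannot be told apart. The titles number the 3 libraries of each group, and nothing says whether they came from separate cultures or transductions. The p-values are therefore set against a spread between libraries that may be technical only.

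The respiratory chain passes electrons from NADH (complex I) and succinate (complex II) to ubiquinone, on to complex III, cytochrome c and complex IV, where oxygen is reduced to water. Complexes I, III and IV pump protons across the inner mitochondrial membrane, and the ATP synthase, complex V, lets them flow back to make ATP. Most subunits are encoded in the nucleus and imported, and a small core of complexes I, III, IV and V is encoded in mitochondrial DNA.

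Libraries held 32436524 to 43044456 counts. Values are given as CPM, counts per 1000000 after TMM scaling, which corrects the total of a library for its composition. Calls rest on an adjusted p below 0.05 from edgeR's quasi-likelihood test, with Benjamini-Hochberg adjustment over 16916 tested genes. All adjusted p-values of single genes come from that test with n = 3 libraries per group, and genes are said to rise or fall only where they passed it. As a check of the labels, AKR1B1 had 146, 148 and 167 CPM in shAKR1B1 cells and 945, 1109 and 1135 CPM in shSORD cells, against 1456, 1395 and 1397 CPM in control cells. SORD had 30.4, 30.2 and 31.0 CPM in shAKR1B1 cells and 8.68, 8.997 and 8.18 CPM in shSORD cells, against 44.1, 43.0 and 41.7 CPM in control cells. Each target was therefore lowest in its own knockdown, and each also fell in the other one. All 5 epithelial markers (EPCAM, CDH1, KRT8, KRT18, KRT19) were detected, and their summed level was 11189 to 11736 CPM with shAKR1B1 and 9063 to 10824 CPM with shSORD, against 6693 to 6851 CPM in control cells. The 4 endothelial markers summed to at most 0.285 CPM in any library. The 4 leukocyte markers summed to 5.13 to 5.85 CPM with shAKR1B1 and 2.86 to 4.51 CPM with shSORD, against 8.09 to 9.75 CPM in control cells, with PTPRC and CD3E at or near 0. Of the 2 tested leukocyte markers 1 rose and 1 fell with each knockdown, at median log2 fold changes of 1.54 with shAKR1B1 and 0.48 with shSORD. The 6 fibroblast markers summed to 8.72 to 10.2 CPM with shAKR1B1 and 34.2 to 54.5 CPM with shSORD, against 14.7 to 16.2 CPM in control cells, with DCN and PDGFRA near 0 in all groups. All 4 tested fibroblast markers rose with shSORD, at a median log2 fold change of 3.72, against 27.5% of all tested genes. With shAKR1B1 1 of these 4 rose and 1 fell. Mitochondrially encoded genes took 7.90% to 8.10% of counts with shAKR1B1 and 7.72% to 8.17% with shSORD, against 6.46% to 7.55% in control cells. What part these differences have in the results below was not tested. Among the shSORD libraries replicate 2 stood apart, with 0.898% of its counts on respiratory chain genes, against 0.853% as the lowest of the 3, and the count of called members is given without it below. Both comparisons with control use the same 3 control libraries, so their values are set side by side and are not independent of each other.

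Of the 89 genes, 82 passed the expression filter. The other 7 had no or almost no counts. They were COX4I2, COX6A2, COX7A1, COX7B2 and COX8C, known as tissue-restricted forms of complex IV subunits, the ATP5MGL copy, and the read-through ATP5MF-PTCD1. None of these 7 exceeded 0.12 CPM in any library. A549 cells thus had counts mainly for the forms COX4I1, COX6A1, COX6B1, COX7A2, COX7A2L, COX7B and COX8A.

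Levels of different genes are compared per kilobase of transcript (CPM per kb, with the median length of a gene's consensus coding transcripts in GENCODE 29, so they are approximate). In control cells the median gene of complex I had 72.1 CPM per kb, that of complex II 79.0, of complex III 82.7, of complex IV 163 and of complex V 155 CPM per kb. The highest member was ATP5F1B, the catalytic beta subunit of the ATP synthase, at 555 ± 15.5 CPM per kb in shAKR1B1 cells, 494 ± 18.2 in shSORD cells and 604 ± 12.8 in control cells (SD, n = 3 each). COX6B1, a subunit on the outer face of complex IV, was the highest of its complex at 391 ± 20.6 CPM per kb in control cells. The highest members of complexes I, II and III were NDUFS5 at 199 ± 9.999, SDHC at 157 ± 5.66 and UQCRH at 217 ± 7.12 CPM per kb. The order of complexes by their median and the ranks of single genes were not tested and rest on transcript lengths that the counts do not fix. SDHC ranks first in complex II at a length of 460 bases, with a mean of 72.0 CPM in control cells. SDHA had 174 CPM and SDHB 88.9 CPM there.

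**Figure D1:**
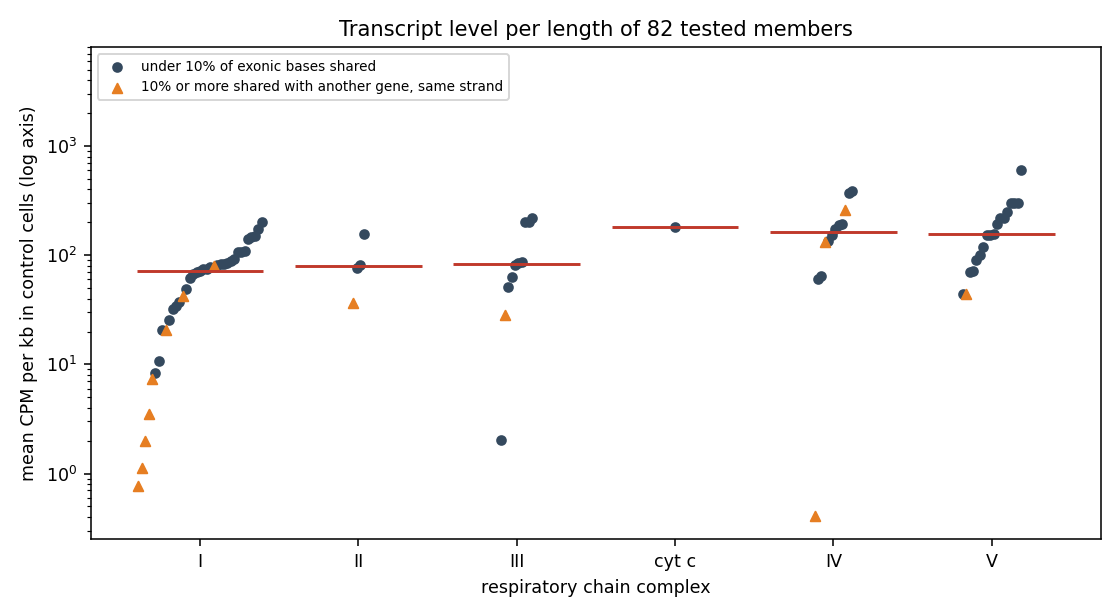
Mean level of each of the 82 tested genes in control cells, as CPM per kb of transcript on a log axis, by complex. Red lines are medians, and triangles mark genes that share 10% or more of their exonic bases with another gene on the same strand. Medians of complexes IV (163) and V (155) lie above that of complex I (72.1), and the 4 lowest complex I genes are all triangles.

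Some rows are uncertain as measures of their subunit. Of the 82 tested genes, 5 had a mean under 10 CPM: NDUFA7 (0.595 CPM), COX6B2 (0.575), NDUFA13 (1.42), NDUFV2 (2.51) and UQCRHL (5.32). The first 4 share 32.3%, 30.9%, 21.0% and 28.4% of their exonic bases with another gene on the same strand in GENCODE 29. UQCRHL is an intronless copy of UQCRH, so reads of both cannot be told apart with certainty. Across the other 77 genes the median shared part was 0%, and 10 of them shared at least 10%, with NDUFB8 (33.8%) and COX8A (34.5%) the highest. Rows of 227 pseudogenes of these genes held 0.414% of the counts of members and pseudogenes together. For some members the share was larger. The pseudogenes SDHAP4, SDHAP1 and SDHAP3 had 373 to 725, 270 to 399 and 154 to 311 counts per library, against 5026 to 6861 for SDHA. NDUFV2P1 had 29 to 61 counts per library, against 57 to 135 for NDUFV2. How well reads were parted between these rows was not tested, so SDHA is uncertain too.

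With AKR1B1 knockdown the chain moved in both directions. Of the 82 tested genes 10 rose and 26 fell, or 12.2% and 31.7%. Over all 16916 tested genes 57.4% passed the test, with 27.8% higher and 29.6% lower. Among genes of at least 20 CPM, 10 of 72 members rose and 22 fell (30.6%), while 40.8% of all 7731 tested genes of that level fell and 24.1% rose. Among the 435 tested protein-coding genes of at most 1000 bases and at least 20 CPM, some of which are members, 12.6% rose and 43.4% fell. The share of members that fell was thus near or below that of the genes they were set against. The median log2 fold change of the tested members was -0.08, against 0.00 over all tested genes, and no called member changed 2-fold. Called falls had a median of 1.23-fold and called rises a median of 1.17-fold. With library totals in place of TMM scaling the split was 14 higher and 19 lower, with upper-quartile scaling 14 and 18, and the median of all genes moved by 0.04 and 0.06 on the log2 scale.

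With SORD knockdown the calls lay almost all on the lower side. Of the 82 tested genes 2 rose and 41 fell, or 2.44% and 50%, against 27.5% and 29% of all tested genes (56.5% in either direction). Of the 72 members with at least 20 CPM, 1 rose and 37 fell (51.4%), while 22.8% of all genes of that level rose and 41.2% fell. Among the same 435 short genes of at least 20 CPM 11.03% rose and 50.1% fell. The share of members that fell was therefore above that of all genes and near that of short, abundant genes. The median log2 fold change of the 82 tested members was -0.14, against 0.00 over all tested genes, and called falls had a median of 1.23-fold. With library totals in place of TMM scaling 5 were higher and 29 lower, and likewise 5 and 29 with upper-quartile scaling, while the median of all genes moved by 0.07 in each. Without shSORD replicate 2 the fit gave 49 falls and a median of -0.19, and without shSORD replicate 1 it gave 30 falls. In fits of only the compared groups 33 members fell with shSORD and 31 with shAKR1B1.

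Set directly against each other, the knockdowns differed in the level of the chain. With shAKR1B1 28 of 82 members were higher than with shSORD and 1 was lower, against 15.5% higher and 15.1% lower over all tested genes (30.7% in either direction). Of members with at least 20 CPM 27 of 72 (37.5%) were higher and 0 lower, compared with 17.5% and 15.7% of all genes of that level. The count of 0 lower is from edgeR, and it was also 0 at an unadjusted p under 0.05 and in DESeq2. With the replicate number as a block 30 members were higher and 2 lower. The median log2 difference over the members was 0.12, against 0.01 over all tested genes. With only the compared groups in the fit, or without shSORD replicate 1, the count of higher members was 18, and without shSORD replicate 2 it was 35.

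**Figure D2:**
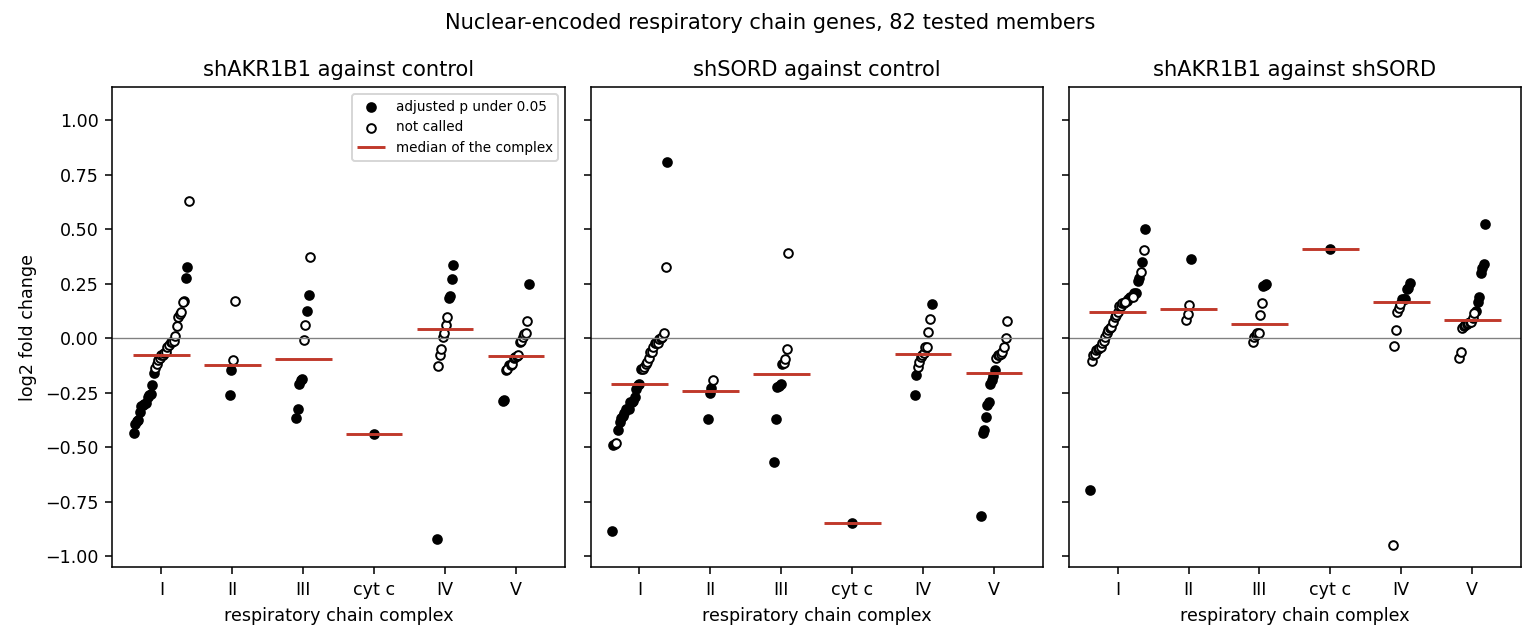
Log2 fold changes of the 82 tested genes by complex in the 3 comparisons, as points ordered within each complex. Filled points passed an adjusted p of 0.05 in edgeR, open points did not, and red lines are medians. Medians of complexes I, II, III and V lie below 0 with both knockdowns against control, and nearly all filled points in the right panel lie above 0.

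The summed level of all 89 genes was 9325, 9401 and 9443 CPM in shAKR1B1 cells and 8314, 8782 and 8480 CPM in shSORD cells, against 9952, 9777 and 9592 CPM in control cells. The libraries of the 3 groups did not overlap, and the means were 96.1% of control with shAKR1B1 and 87.2% with shSORD. By complex the sum was 93.5% of control for complex I, 91.2% for II, 94.4% for III, 73.8% for cytochrome c, 105% for IV and 95.7% for V in shAKR1B1 cells. In shSORD cells it was 87.9% for complex I, 83.3% for II, 85.2% for III, 55.6% for cytochrome c, 95.3% for IV and 85.6% for V. An exact permutation test of 3 against 3 libraries cannot go below p = 0.1, so these sums are given without a test. In bulk RNA, fewer cells of a kind and less RNA per cell cannot be told apart.

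**Figure D3:**
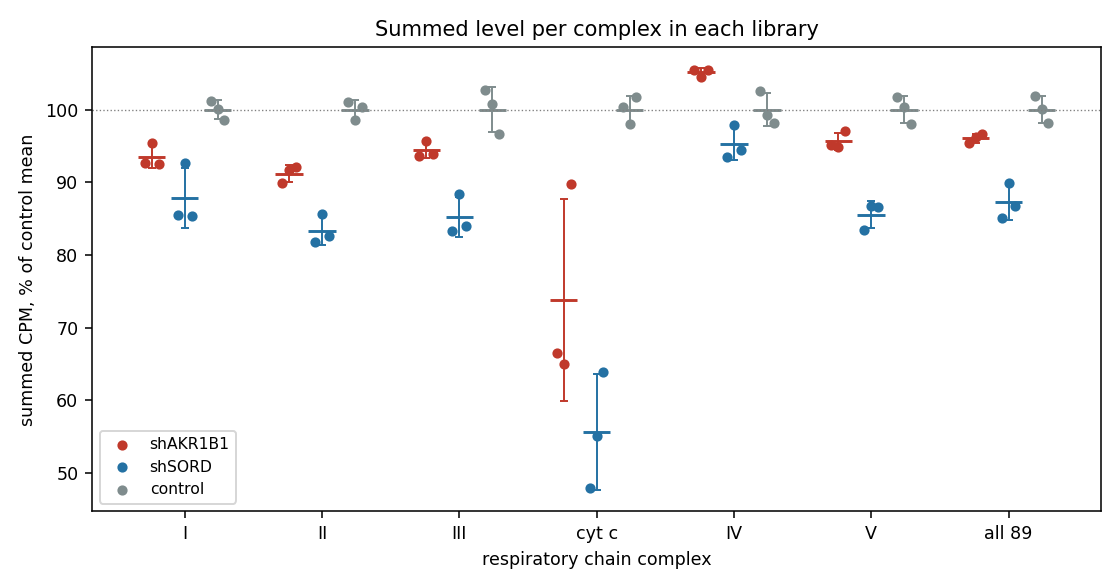
Summed CPM of each complex in every library as a percentage of the control mean, with the group mean and SD (n = 3). Cytochrome c is lowest at 73.8% with shAKR1B1 and 55.6% with shSORD, and complex IV with shAKR1B1 (105%) is the only mean above 100%.

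Complex I, the NADH dehydrogenase, had 3 rises and 14 falls among 37 tested genes with shAKR1B1, 1 rise and 19 falls with shSORD, and 10 higher and 1 lower between the knockdowns. Here and below, counts per complex stand beside the shares over all tested genes. These were 27.8% higher and 29.6% lower with shAKR1B1, 27.5% and 29% with shSORD, and 15.5% and 15.1% between the knockdowns. The NDUFS group, named for the iron-sulfur subunits and those that come with them, had 5 of 8 genes lower and 1 higher with shAKR1B1. With shSORD 7 of these 8 genes were lower and 0 higher. NDUFS8, an iron-sulfur subunit that carries electrons toward ubiquinone, had 84.0, 84.1 and 89.01 CPM in shAKR1B1 cells and 87.1, 98.0 and 74.7 CPM in shSORD cells, against 124, 113 and 111 CPM in control cells. All libraries of both knockdowns lay below all control libraries. It fell, with log2 fold changes of -0.44 (SE 0.08, adjusted p = 0.000327) with shAKR1B1 and -0.42 (SE 0.08, adjusted p = 0.000457) with shSORD. NDUFS7, the neighbouring iron-sulfur subunit, had 25.7, 27.9 and 27.3 CPM with shAKR1B1 and 28.6, 31.6 and 24.95 CPM with shSORD, against 34.4, 33.3 and 32.6 CPM in control cells, log2 fold changes of -0.31 and -0.23 (adjusted p = 0.004 and 0.0203). Neither knockdown overlapped control, but the shSORD call was lost in 4 of 6 fits that each left out a library of the compared groups. NDUFS1, the largest iron-sulfur subunit, had 171, 168 and 169 CPM with shAKR1B1 and 142, 147 and 156 CPM with shSORD, against 179, 185 and 179 CPM in control cells. It fell with shSORD (-0.29, adjusted p = 0.000215) and had a log2 fold change of -0.10 with shAKR1B1 (adjusted p = 0.108).

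The other accessory subunits of complex I gave both directions. NDUFA6, which binds the acyl carrier protein in the matrix arm, had 47.4, 50.5 and 48.8 CPM in shAKR1B1 cells and 40.01, 46.7 and 42.1 CPM in shSORD cells, against 58.9, 60.5 and 61.6 CPM in control cells. Its log2 fold changes were -0.30 (SE 0.06, adjusted p = 0.00101) and -0.49 (SE 0.06, adjusted p = 1.55e-05), with shSORD libraries lowest. NDUFA8, a subunit on the intermembrane side, had 49.3, 50.8 and 52.6 CPM with shAKR1B1 and 43.9, 47.4 and 44.6 CPM with shSORD, against 57.8, 59.2 and 60.1 CPM in control cells. The log2 fold changes were -0.21 and -0.38 (adjusted p = 0.00505 and 4.84e-05). In the membrane arm NDUFB6 had 51.6, 51.4 and 48.3 CPM with shAKR1B1 and 44.1, 43.2 and 49.5 CPM with shSORD, against 67.9, 59.9 and 63.6 CPM in control cells, log2 fold changes of -0.34 and -0.49 (adjusted p = 0.000635 and 2.88e-05). NDUFB10 and NDUFB7, also of the membrane arm, fell, with log2 fold changes of -0.37 and -0.31 with shAKR1B1 and -0.27 and -0.36 with shSORD. For each of these genes the knockdown libraries lay below the control libraries without overlap. NDUFA9, an accessory subunit of the matrix arm, fell at a log2 fold change of -0.40 with shAKR1B1 (adjusted p = 0.00234) and -0.34 with shSORD (adjusted p = 0.00581), at 11.3 to 17.2 CPM. The remaining falls in the matrix and membrane arms with shAKR1B1 were NDUFA12, NDUFB9, NDUFS3, NDUFS5 and NDUFS6, at log2 fold changes of -0.30 to -0.16. With shSORD the same 5 genes had log2 fold changes of -0.37 to -0.21, and NDUFB4 (-0.29), NDUFB8 (-0.21) and NDUFV3 (-0.32) also fell. Leaving out single libraries ended the calls of NDUFA12 and NDUFS6 with shAKR1B1 in 5 of 6 fits each, and those of NDUFB8 and NDUFS6 with shSORD in 4 of 6 each. The 20 genes of complex I without a call with shAKR1B1 lay between log2 fold changes of -0.14 and 0.63, and the 17 with shSORD between -0.48 and 0.33. NDUFV1, which binds NADH, was among those without a call in both.

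A smaller set of complex I genes rose with shAKR1B1. NDUFA5, an accessory subunit of the matrix arm, had 44.8, 43.5 and 44.1 CPM in shAKR1B1 cells and 34.2, 30.6 and 39.3 CPM in shSORD cells, against 34.8, 34.9 and 36.0 CPM in control cells. The shAKR1B1 libraries were the highest, while shSORD and control libraries overlapped, and the log2 rise was 0.32 (SE 0.08, adjusted p = 0.00232). NDUFB5, of the membrane arm, had 48.3, 49.2 and 45.3 CPM with shAKR1B1 and 38.1, 38.4 and 41.2 CPM with shSORD, against 40.2, 38.1 and 39.6 CPM in control cells, a log2 rise of 0.28 (adjusted p = 0.00131). NDUFS4, an accessory subunit whose loss in people causes Leigh syndrome, rose on the log2 scale by 0.17 with shAKR1B1 (adjusted p = 0.0218), a call lost without shAKR1B1 replicate 1 or control replicate 1. Among the rows with few reads, NDUFV2 fell at log2 fold changes of -0.38 and -0.88 (adjusted p = 0.0429 and 0.000242), and NDUFA13 rose on the log2 scale by 0.81 with shSORD (adjusted p = 0.00457). NDUFV2 had only 2.51, 2.76 and 2.25 CPM with shAKR1B1 and 1.97, 1.39 and 1.96 CPM with shSORD, against 2.84, 3.50 and 3.44 CPM in control cells, and NDUFA13 had 1.92, 2.34 and 1.58 CPM with shSORD, against 0.773, 1.22 and 1.32 CPM in control cells. Since these levels are far below those of partner subunits and exons are shared with other genes, how well these rows measure their subunits was not tested. Of the calls just given, that of NDUFV2 with shAKR1B1 was lost in 4 of 6 fits that left out a library.

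Complex II, succinate dehydrogenase, links the citric acid cycle to the chain, and all 4 of its subunits come from the nucleus. SDHB, the iron-sulfur subunit, had 73.1, 76.7 and 72.7 CPM in shAKR1B1 cells and 68.0, 72.6 and 65.5 CPM in shSORD cells, against 87.8, 91.1 and 87.6 CPM in control cells. No library of either knockdown reached a control library, and the log2 fold changes were -0.26 (SE 0.06, adjusted p = 0.00105) and -0.37 (SE 0.06, adjusted p = 5.27e-05). SDHA, the flavoprotein that oxidises succinate, had 154, 160.0 and 158 CPM with shAKR1B1 and 147, 156 and 142 CPM with shSORD, against 174, 172 and 175 CPM in control cells, with log2 fold changes of -0.14 and -0.23 (adjusted p = 0.0245 and 0.00149). Its shAKR1B1 call was lost in each of the 6 fits that left out a library. The membrane anchor SDHC fell with shSORD at a log2 fold change of -0.25 (adjusted p = 0.00282), with 55.3, 63.1 and 62.9 CPM against 74.5, 69.3 and 72.2 CPM in control cells, and had a log2 fold change of -0.10 with shAKR1B1 (adjusted p = 0.179). The other anchor, SDHD, had 36.1, 30.6 and 40.1 CPM with shAKR1B1 and 28.9, 21.6 and 32.7 CPM with shSORD, against 33.5, 28.1 and 33.5 CPM in control cells. Its groups overlapped and neither knockdown passed the test against control (log2 fold changes of 0.17 and -0.19, adjusted p = 0.28 and 0.221). Between the knockdowns it was higher with shAKR1B1 by 0.36 on the log2 scale (adjusted p = 0.0466), with overlapping libraries and a call lost in 4 of 6 fits that left out a library.

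Complex III, the cytochrome bc1 complex, had 2 rises and 5 falls among 10 tested genes with shAKR1B1, 6 falls with shSORD, and 3 higher between the knockdowns. CYC1, the cytochrome c1 subunit that hands electrons to cytochrome c, had 191, 194 and 208 CPM in shAKR1B1 cells and 163, 184 and 155 CPM in shSORD cells, against 264, 243 and 236 CPM in control cells. The 3 groups did not overlap: CYC1 fell at a log2 fold change of -0.33 (SE 0.07, adjusted p = 0.000707) with shAKR1B1 and at -0.57 (SE 0.07, adjusted p = 4.71e-06) with shSORD. UQCRC1, a core protein on the matrix side, had 128, 127 and 136 CPM with shAKR1B1 and 126, 138 and 125 CPM with shSORD, against 182, 164 and 158 CPM in control cells. Its log2 fold changes were -0.37 and -0.37 (adjusted p = 0.000147 and 0.000137), and the knockdowns overlapped each other. Its partner core protein UQCRC2 had 253, 249 and 244 CPM with shAKR1B1 and 209, 208 and 215 CPM with shSORD, against 226, 234 and 225 CPM in control cells. UQCRC2 thus lay above control with shAKR1B1 (0.12, adjusted p = 0.0354) and below it with shSORD (-0.12, adjusted p = 0.0464), and was higher with shAKR1B1 than with shSORD by 0.24 (SE 0.05, adjusted p = 0.00119). Both calls against control were lost in 5 of 6 fits that left out a library, while the call between the knockdowns was kept in all 15 alternatives. UQCRFS1, the Rieske iron-sulfur protein, fell at log2 fold changes of -0.19 and -0.22 (adjusted p = 0.00376 and 0.00169). The small subunits UQCR10 and UQCR11 fell by 0.19 and 0.21 on the log2 scale with shAKR1B1, and had log2 fold changes of -0.21 and -0.22 with shSORD, and both calls with shAKR1B1 were lost in 3 of 6 fits that left out a library. UQCRB, which lies near the ubiquinone site, rose with shAKR1B1 on the log2 scale by 0.20 (adjusted p = 0.0129) with 1 library inside the control range, a call lost without shAKR1B1 replicate 1, shAKR1B1 replicate 2 or control replicate 1. The hinge protein gene UQCRH and its copy UQCRHL had no call with either knockdown, with adjusted p of 0.922 and 0.0926 with shAKR1B1 and 0.0634 and 0.0782 with shSORD.

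CYCS encodes cytochrome c, the soluble carrier between complexes III and IV, which also takes part in apoptosis when released from mitochondria. It had 118, 115 and 159 CPM in shAKR1B1 cells and 84.9, 97.5 and 113 CPM in shSORD cells, against 178, 174 and 180.1 CPM in control cells. Every knockdown library lay below every control library, and within shAKR1B1 replicate 3 stood above the other 2. CYCS fell to 73.9% of control with shAKR1B1 (log2 fold change -0.44, SE 0.11, adjusted p = 0.00358) and to 55.6% with shSORD (-0.85, SE 0.11, adjusted p = 1.54e-05). Both calls were kept in all 15 alternatives. Between the knockdowns the difference was 0.41 (adjusted p = 0.0119), a call lost without shAKR1B1 replicate 3 or shSORD replicate 1.

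**Figure D4:**
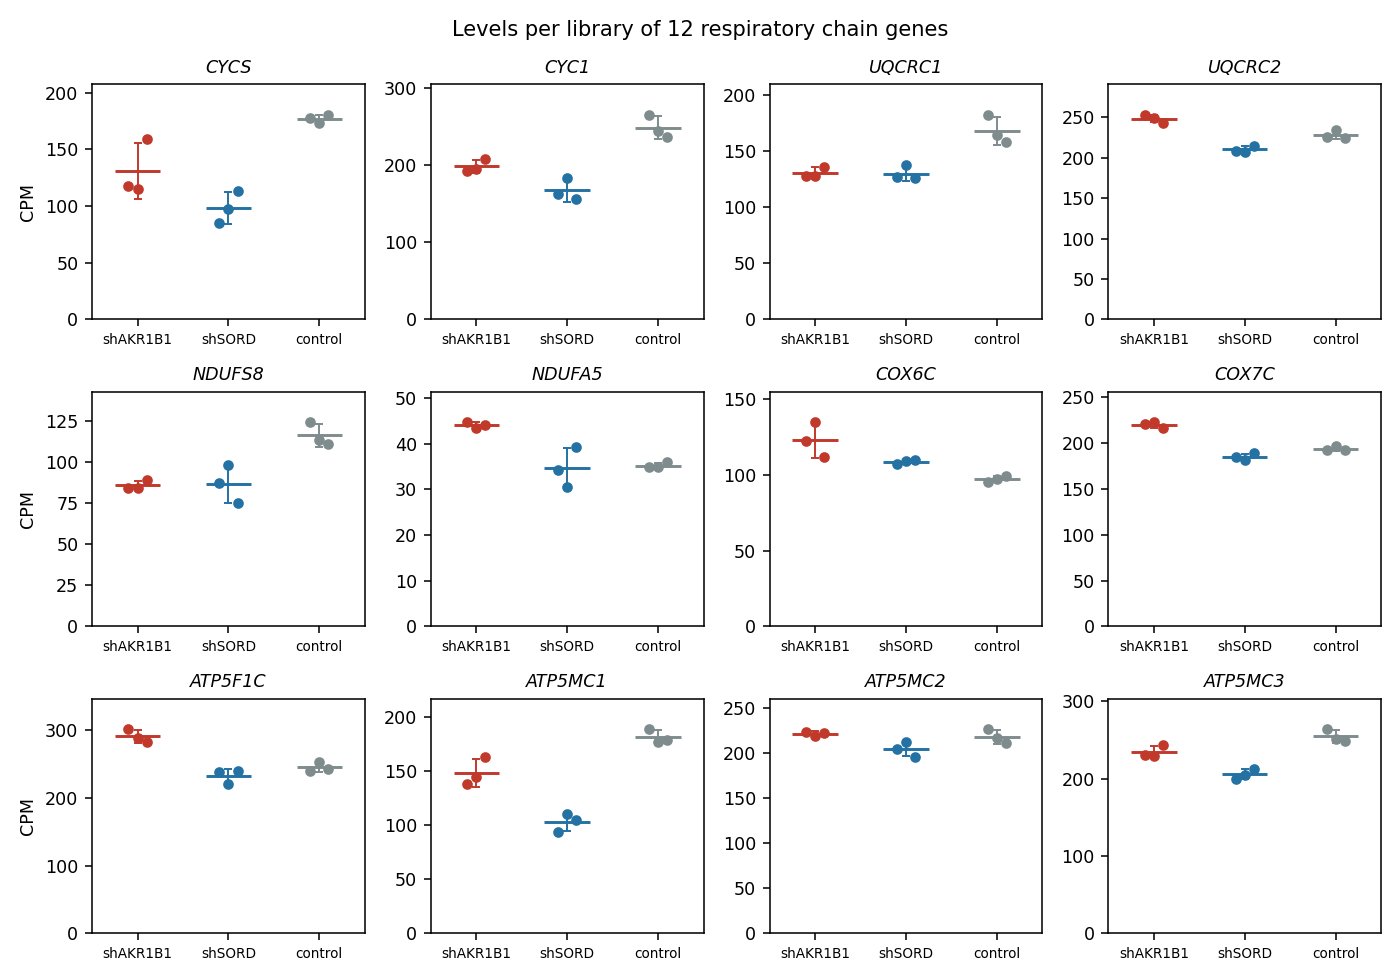
CPM of 12 respiratory chain genes in each library, with the group mean and SD (n = 3). CYCS, CYC1, UQCRC1, NDUFS8 and ATP5MC1 lie below control with both knockdowns, and NDUFA5, COX6C, COX7C and ATP5F1C lie above control with shAKR1B1.

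Complex IV, cytochrome c oxidase, had 4 rises and 1 fall among 12 tested genes with shAKR1B1, 1 rise and 2 falls with shSORD, and 6 higher between the knockdowns. COX6C, a small membrane subunit, had 122, 135 and 112 CPM in shAKR1B1 cells and 107, 109 and 109.8 CPM in shSORD cells, against 95.5, 97.5 and 99.7 CPM in control cells. All knockdown libraries lay above all control libraries. COX6C rose on the log2 scale by 0.33 (SE 0.06, adjusted p = 0.000389) with shAKR1B1 and by 0.16 (SE 0.06, adjusted p = 0.0484) with shSORD, where the call was lost in 5 of 6 fits that left out a library. COX7C had 221, 223 and 216 CPM with shAKR1B1 and 185, 181 and 189 CPM with shSORD, against 192, 197 and 192 CPM in control cells, a log2 rise of 0.18 with shAKR1B1 (adjusted p = 0.00351). The widely used form COX7A2 had 129.5, 131 and 131 CPM with shAKR1B1 and 108, 115 and 112 CPM with shSORD, against 119, 113 and 111 CPM in control cells. Its log2 rise with shAKR1B1 was 0.19 (adjusted p = 0.00479). COX7A2L, a related protein that joins complexes III and IV into supercomplexes, had 154, 146 and 154 CPM with shAKR1B1 and 137, 122 and 141 CPM with shSORD, against 129, 124 and 123 CPM in control cells, a log2 rise of 0.27 with shAKR1B1 (adjusted p = 0.0012). In these 3 genes the shAKR1B1 libraries lay above all control libraries.

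The other common subunits of complex IV had no call against control, apart from COX8A and COX7B. COX4I1, a subunit that binds ATP, had 264, 271 and 253 CPM with shAKR1B1 and 261, 291 and 257 CPM with shSORD, against 286, 273 and 273 CPM in control cells (adjusted p = 0.251 and 0.559). COX5A, COX5B, COX6A1 and COX6B1 had log2 fold changes between -0.13 and 0.10 in both knockdowns, and none passed the test against control. The 2 falls with shSORD were COX8A (-0.26, adjusted p = 0.00759), lost without control replicate 1, and COX7B (-0.17, adjusted p = 0.0168), lost without shSORD replicate 1 or control replicate 2. COX6B2, a form known from testis, made up the single fall with shAKR1B1 (-0.92, adjusted p = 0.0358), at under 1 CPM in all libraries and with overlapping groups. That call was lost in DESeq2, which called 0 complex IV genes lower with shAKR1B1, and in 4 of 6 fits that left out a library. NDUFA4, the complex IV subunit with a complex I name, had 192, 190.1 and 194 CPM with shAKR1B1 and 168, 169 and 171 CPM with shSORD, against 183, 181 and 166 CPM in control cells. It was higher with shAKR1B1 than with shSORD by 0.18 (adjusted p = 0.0135), and its paralog NDUFA4L2 was under 1 CPM in all libraries.

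Complex V, the ATP synthase, had 1 rise and 3 falls among 18 tested genes with shAKR1B1, 10 falls with shSORD, and 7 higher between the knockdowns. In the catalytic head, ATP5F1B (beta) had 1005, 1002 and 1053 CPM in shAKR1B1 cells and 871, 918 and 936 CPM in shSORD cells, against 1132, 1116 and 1085 CPM in control cells. It fell at a log2 fold change of -0.29 with shSORD (SE 0.05, adjusted p = 0.000108) and at -0.12 with shAKR1B1 (adjusted p = 0.0378), where the call was lost in 5 of 6 fits that left out a library. ATP5F1A (alpha) had 431, 436 and 434 CPM with shAKR1B1 and 391, 395 and 405 CPM with shSORD, against 461, 458 and 460.0 CPM in control cells, a log2 fold change of -0.21 with shSORD (adjusted p = 0.000835). ATP5F1C (gamma), the rotating shaft inside the head, had 301, 288 and 282 CPM with shAKR1B1 and 237, 220.0 and 238 CPM with shSORD, against 239, 252 and 242 CPM in control cells. All shAKR1B1 libraries were above all others, and the log2 rise against control was 0.25 (SE 0.05, adjusted p = 0.000807), kept in all 15 alternatives.

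The membrane ring of the ATP synthase is built from subunit c, which ATP5MC1, ATP5MC2 and ATP5MC3 encode with the same mature protein and different import sequences. ATP5MC1 had 138, 145 and 163 CPM in shAKR1B1 cells and 94.3, 110.3 and 105 CPM in shSORD cells, against 189, 177 and 179 CPM in control cells. The 3 groups did not overlap, and ATP5MC1 fell to 81.9% of control with shAKR1B1 (-0.29, SE 0.07, adjusted p = 0.00263) and to 56.9% with shSORD (-0.81, SE 0.07, adjusted p = 2.3e-07). ATP5MC3 had 230.3, 229 and 243 CPM with shAKR1B1 and 199.9, 204 and 213 CPM with shSORD, against 264, 251.4 and 248 CPM in control cells, and fell with shSORD at a log2 fold change of -0.31 (adjusted p = 0.000121). ATP5MC2 had 224, 219 and 222 CPM with shAKR1B1 and 204, 213 and 196 CPM with shSORD, against 226, 216 and 211 CPM in control cells, with log2 fold changes of 0.02 and -0.09 that did not pass the test (adjusted p = 0.705 and 0.135). Whether the 3 paralogs differ from each other in their change was not tested. In control cells the levels per length were 299.5 ± 10.7 CPM per kb for ATP5MC1, 248 ± 8.77 for ATP5MC2 and 302 ± 9.84 for ATP5MC3.

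Among the stalk and membrane subunits, ATP5PB, the b subunit of the peripheral stalk, had 128, 124 and 132 CPM with shAKR1B1 and 100.4, 99.6 and 112 CPM with shSORD, against 139.6, 142 and 135 CPM in control cells. It fell with shSORD at a log2 fold change of -0.42 (SE 0.06, adjusted p = 2.17e-05), and its log2 fold change with shAKR1B1 was -0.12 (adjusted p = 0.0828). ATP5MK, a small subunit that helps to hold synthase dimers, had 92.1, 85.5 and 90.2 CPM with shAKR1B1 and 71.7, 58.0 and 81.9 CPM with shSORD, against 98.1, 94.0 and 93.4 CPM in control cells, a log2 fold change of -0.43 with shSORD (adjusted p = 0.00094). ATP5IF1, which inhibits the synthase when it runs backward, had 49.8, 50.03 and 47.4 CPM with shAKR1B1 and 50.8, 55.4 and 47.8 CPM with shSORD, against 54.6, 54.9 and 53.1 CPM in control cells, without a call (-0.14 and -0.08, adjusted p = 0.0645 and 0.307). ATP5F1D, the delta subunit of the head's central stalk, fell at log2 fold changes of -0.29 and -0.36 (adjusted p = 0.0345 and 0.0103), and the shAKR1B1 call was lost in 5 of 6 fits that left out a library. With shSORD the small subunits ATP5MF (-0.19), ATP5MG (-0.17) and ATP5PF (-0.14) also fell, and each of these calls was lost in at least 1 fit that left out a library. ATP5PO, the stalk subunit that meets the head, had no call (log2 fold changes of -0.02 and -0.07). All 14 genes of complex V without a call with shAKR1B1 lay between log2 fold changes of -0.14 and 0.08, and the 8 with shSORD between -0.09 and 0.08.

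In the direct comparison of the knockdowns the largest differences among members of 10 CPM or more were ATP5MC1 (0.53, SE 0.07, adjusted p = 4.49e-05) and CYCS, given above. NDUFV2, under 10 CPM, was higher with shAKR1B1 by 0.50 (adjusted p = 0.0298), a call kept in 11 of 15 alternatives. NDUFA5 (0.35), ATP5MK (0.34), ATP5F1C (0.32), ATP5PB (0.30), NDUFB5 (0.28), COX7C (0.25) and NDUFS4 (0.26) were also higher with shAKR1B1, with adjusted p between 0.000212 and 0.0108. CYC1 was higher by 0.24 (adjusted p = 0.0122), a call lost without shAKR1B1 replicate 3 or shSORD replicate 1. By complex, 10 of 37 tested genes of complex I, 6 of 12 of complex IV and 7 of 18 of complex V were higher with shAKR1B1 than with shSORD. The share over all tested genes was 15.5%. The single member called lower was NDUFA13, among the rows with few reads. NDUFS8, UQCRC1 and NDUFB10 overlapped between the knockdowns, with adjusted p of 0.911, 0.956 and 0.227.

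The 13 subunits encoded in mitochondrial DNA moved in both directions. With shAKR1B1 3 were higher and 2 lower, with shSORD 4 and 4. Over all tested genes 27.8% were higher and 29.6% lower with shAKR1B1, and 27.5% and 29% with shSORD. For only 13 genes nothing is read from these counts. MT-CO1, the catalytic subunit of complex IV, had 17063, 16669.7 and 16993 CPM with shAKR1B1 and 16706, 15159.5 and 15589 CPM with shSORD, against 12499, 13724 and 12743 CPM in control cells, log2 rises of 0.38 and 0.28 (adjusted p = 1.29e-05 and 0.000211). MT-ND4 of complex I also rose, by 0.39 and 0.33, while MT-ND1 of the same complex fell at log2 fold changes of -0.35 and -0.31. MT-CYB, the cytochrome b of complex III, fell at log2 fold changes of -0.35 and -0.31. MT-ND6, encoded on the other strand from the rest, had 132, 149 and 176 CPM with shAKR1B1 and 88.1, 98.6 and 101.5 CPM with shSORD, against 137, 162 and 183 CPM in control cells, a log2 fold change with shSORD of -0.74 (adjusted p = 2.91e-05), while the adjusted p with shAKR1B1 was 0.535. MT-ND4L rose on the log2 scale by 0.39 and 0.20, MT-ND5 rose with shSORD on the log2 scale by 0.23 and MT-ND3 fell with shSORD at a log2 fold change of -0.15. MT-ND2, MT-CO2, MT-CO3, MT-ATP6 and MT-ATP8 had no call against control. Libraries were made by poly(A) selection, and how far tail length enters these values was not tested.

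The counts that follow for other gene lists stand beside a background of 27.8% higher and 29.6% lower with shAKR1B1, and of 27.5% higher and 29% lower with shSORD. Among the assembly factors of complexes I to V most calls were falls. Of 16 complex I assembly factors 1 rose and 8 fell with shAKR1B1, and 1 rose and 10 fell with shSORD. NDUFAF4, needed for the matrix arm, had 12.2, 11.6 and 11.97 CPM with shAKR1B1 and 9.35, 8.97 and 11.8 CPM with shSORD, against 19.1, 16.4 and 20.2 CPM in control cells (log2 fold changes of -0.64 and -0.89, adjusted p = 7.86e-05 and 4.34e-06). NDUFAF8 fell at log2 fold changes of -0.70 and -0.43. Of 22 tested complex IV assembly factors 1 rose and 11 fell with shAKR1B1, and 1 rose and 15 fell with shSORD. COA6, which helps to place copper in complex IV, had 9.89, 10.5 and 10.8 CPM with shAKR1B1 and 22.0, 23.1 and 26.3 CPM with shSORD, against 29.3, 27.3 and 31.5 CPM in control cells. It fell to 35.5% of control with shAKR1B1 (-1.49, SE 0.08, adjusted p = 1.83e-09) and at -0.30 with shSORD (adjusted p = 0.00468). COX20 and COA7 fell at log2 fold changes of -0.78 and -0.74 with shAKR1B1 and at -0.57 and -0.72 with shSORD. For complex II, SDHAF4 rose with shAKR1B1 and with shSORD (0.67 and 0.29), while SDHAF2 fell at log2 fold changes of -0.36 and -0.36 and SDHAF3 at -0.31 and -0.51. UQCC3 of complex III fell at log2 fold changes of -0.55 and -0.44, and TMEM70 of complex V at -0.29 and -0.58. In complex III 2 and 3 of 6 assembly factors fell with shAKR1B1 and shSORD, and in complex V 1 of 4 fell in each. With so few genes in the lists of complexes II, III and V, nothing is read from their shares.

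Around the chain, 19 genes of ubiquinone synthesis and other electron entry had 5 rises and 4 falls with shAKR1B1, and 9 falls with shSORD. Between the knockdowns 8 were higher with shAKR1B1 and 1 lower, against 15.5% and 15.1% of all tested genes. ETFB, part of the flavoprotein that brings electrons from fatty acid oxidation, had 71.4, 70.6 and 64.5 CPM with shAKR1B1 and 43.7, 46.9 and 34.4 CPM with shSORD, against 65.2, 61.1 and 64.7 CPM in control cells, a log2 fold change of -0.61 with shSORD (adjusted p = 4.65e-05). DHODH, the pyrimidine synthesis enzyme that reduces ubiquinone, fell at log2 fold changes of -0.69 and -0.99, and PDSS1, which makes the ubiquinone tail, at -0.74 and -0.83. Of 9 carriers and channels 2 rose and 5 fell with shAKR1B1, and 1 rose and 4 fell with shSORD. VDAC2, a channel of the outer membrane, had 21.9, 20.6 and 21.7 CPM with shAKR1B1 and 98.6, 97.7 and 115 CPM with shSORD, against 122, 123 and 131 CPM in control cells. It fell to 17.1% of control with shAKR1B1 (-2.55, SE 0.07, adjusted p = 1.04e-12), a larger change than any member of the chain showed. In the small list of hypoxia-linked genes 3 of 5 fell with shAKR1B1 and 5 of 5 with shSORD, among them HIF1A (-0.28 and -0.61). Of the 3 supercomplex factors COX7A2L rose and HIGD2A fell with shAKR1B1, and HIGD1A fell with shSORD.

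Of 24 regulators of mitochondrial biogenesis, which switch on nuclear genes of the chain or copy and transcribe mitochondrial DNA, 5 rose and 13 fell with shAKR1B1, and 2 rose and 14 fell with shSORD. NRF1, a transcription factor of many nuclear genes of the chain, had 20.8, 20.5 and 19.9 CPM with shAKR1B1 and 16.5, 20.3 and 19.9 CPM with shSORD, against 28.9, 29.8 and 27.5 CPM in control cells. It fell at a log2 fold change of -0.49 (adjusted p = 8.01e-05) and -0.60 (adjusted p = 1.41e-05), with no overlap of either knockdown with control. The coactivator PPRC1 had 55.8, 63.3 and 68.8 CPM with shAKR1B1 and 61.3, 68.7 and 62.2 CPM with shSORD, against 113, 112 and 110.1 CPM in control cells, log2 fold changes of -0.84 and -0.80. MYC fell at log2 fold changes of -0.63 and -0.68, and the deacetylase SIRT1 at -0.68 and -0.73. The related coactivator PPARGC1A rose with shAKR1B1, at 24.7, 21.5 and 21.0 CPM against 14.5, 13.5 and 13.7 CPM in control cells (0.69, adjusted p = 1.99e-05), and had 17.6, 13.6 and 14.9 CPM with shSORD (0.15, adjusted p = 0.215). Of the 75 tested mitochondrial ribosomal protein genes, whose products translate the mitochondrially encoded subunits, 2 rose and 55 fell (73.3%) with shAKR1B1, and 61 fell (81.3%) with shSORD. Of 76 cytosolic ribosomal protein genes 16 fell (21.1%) with shAKR1B1 and 19 (25%) with shSORD.

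**Figure D5:**
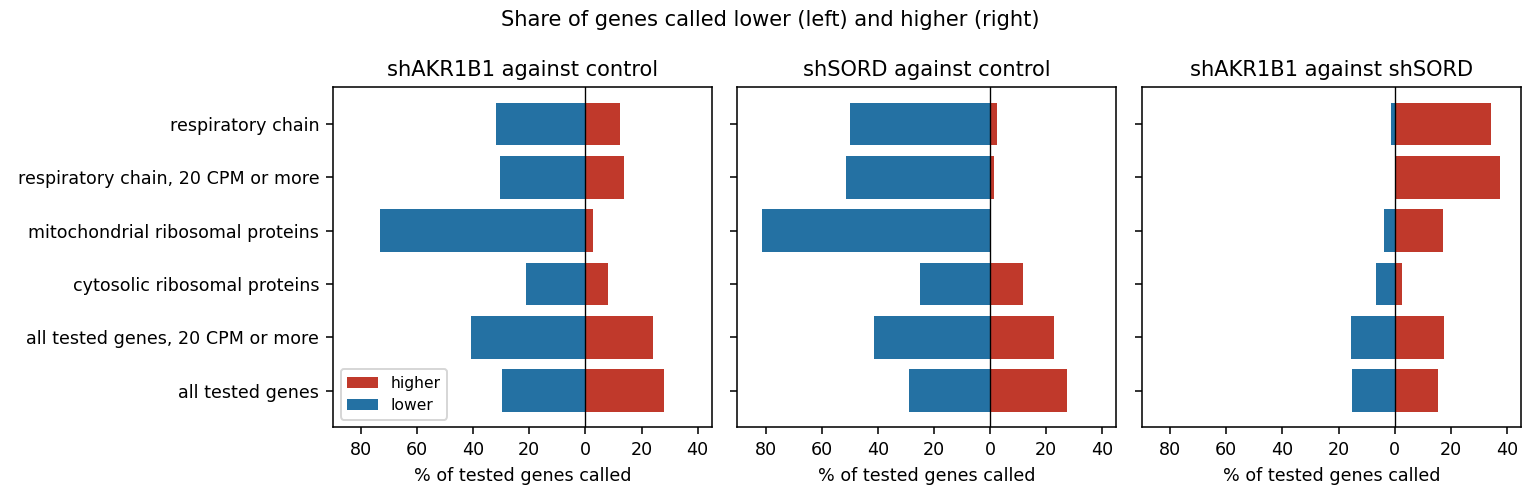
Percentage of tested genes called lower (blue, to the left) and higher (red, to the right) at an adjusted p of 0.05 in each comparison, for the respiratory chain and all genes (each also at 20 CPM or more) and for the mitochondrial and cytosolic ribosomal proteins. Mitochondrial ribosomal protein genes have the longest blue bars against control, 73.3% with shAKR1B1 and 81.3% with shSORD, against 31.7% and 50% for the respiratory chain.

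Promoter sequence was set beside these values because the regulator NRF1 fell. NRF1 is known to bind a palindrome that holds GCATGCGC on each strand, and was first found through the promoter of the rat cytochrome c gene. Windows from 250 bases before to 50 bases after the RefSeq start (GRCh38.p14) were at hand for 70 of the 89 members, 67 of them tested. Below are 5 of them, to 30 bases after the start, for genes named above, with matches in capitals. They show the NRF1 letters in genes that fell (CYCS, NDUFA8, SDHB) and in ATP5F1C, which rose with shAKR1B1, and a promoter without them (ATP5MC1).
CYCS (chr7:25125231-25125510, minus strand): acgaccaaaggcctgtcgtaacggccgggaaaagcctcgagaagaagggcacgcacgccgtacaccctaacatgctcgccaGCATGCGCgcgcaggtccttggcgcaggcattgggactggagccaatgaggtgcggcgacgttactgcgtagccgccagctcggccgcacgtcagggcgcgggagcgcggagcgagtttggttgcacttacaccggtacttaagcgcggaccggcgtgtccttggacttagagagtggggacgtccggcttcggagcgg
NDUFA8 (chr9:122159750-122160029, minus strand): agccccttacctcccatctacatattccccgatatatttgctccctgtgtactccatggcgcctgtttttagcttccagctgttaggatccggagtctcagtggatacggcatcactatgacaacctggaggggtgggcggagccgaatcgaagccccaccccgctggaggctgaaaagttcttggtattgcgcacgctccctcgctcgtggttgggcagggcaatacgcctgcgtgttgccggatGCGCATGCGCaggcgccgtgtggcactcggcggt
SDHB (chr1:17054003-17054282, minus strand): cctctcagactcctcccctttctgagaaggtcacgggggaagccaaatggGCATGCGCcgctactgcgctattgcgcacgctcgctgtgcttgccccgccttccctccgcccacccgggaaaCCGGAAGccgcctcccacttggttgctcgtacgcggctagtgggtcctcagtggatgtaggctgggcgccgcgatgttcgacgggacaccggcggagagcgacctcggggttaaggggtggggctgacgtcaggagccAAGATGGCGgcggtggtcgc
ATP5F1C (chr10:7787927-7788206, plus strand): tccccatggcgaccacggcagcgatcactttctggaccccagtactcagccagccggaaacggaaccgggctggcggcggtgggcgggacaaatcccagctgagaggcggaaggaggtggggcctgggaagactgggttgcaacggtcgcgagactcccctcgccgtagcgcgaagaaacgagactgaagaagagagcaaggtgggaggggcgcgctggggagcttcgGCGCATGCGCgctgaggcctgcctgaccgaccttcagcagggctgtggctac
ATP5MC1 (chr17:48892537-48892816, plus strand): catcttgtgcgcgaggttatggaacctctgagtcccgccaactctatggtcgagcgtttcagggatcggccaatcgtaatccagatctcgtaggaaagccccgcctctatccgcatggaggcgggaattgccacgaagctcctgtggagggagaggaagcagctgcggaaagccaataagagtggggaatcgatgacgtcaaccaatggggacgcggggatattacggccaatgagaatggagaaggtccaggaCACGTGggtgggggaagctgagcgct
The capitals mark GCATGCGC in CYCS, which begins 169 bases before the start. In NDUFA8 and ATP5F1C they mark overlapping matches on both strands, which begin 4 and 22 bases before the start. In SDHB they mark GCATGCGC, the ETS factor motif CCGGAAG and the YY1 motif AAGATGGCG, and in ATP5MC1 the E-box CACGTG, bound by MYC and related factors.

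Searched on both strands and with overlapping matches counted once per window, GCATGCGC was in 14 of the 67 windows of tested members (20.9%), against 574 of 10819 windows of tested protein-coding genes (5.31%). CCGGAAG was in 29.9% of member windows, against 18.4%, AAGATGGCG in 11.9%, against 3.83%, and CACGTG in 10.4%, against 9.96%. Of the 32 windows of members that fell with shSORD 8 (25%) held GCATGCGC, and of the 35 windows of tested members that did not fall 6 (17.1%) did. With shAKR1B1 6 of 21 windows of members that fell (28.6%) and 1 of 7 windows of members that rose (14.3%) held it. These shares describe the letters of the windows and were not tested.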

How the data were processed

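RNA was measured in 9 A549 libraries made with the TruSeq stranded mRNA kit, which selects poly(A) RNA, after Qiazol and miRNeasy extraction, per the labels' protocols. The submitters' processing notes name cutadapt 1.9.1, STAR 2.5.2b, Subread, featureCounts 1.5.1, DESeq2 1.12.3 and the GRCh37 genome. The deposited values are raw read counts per Ensembl gene, 1 column per library, whole numbers without normalization by the authors. The sources used here do not give the gene annotation release, the strand setting or how reads matching several places were counted. How such reads were counted bears on members with pseudogenes or near-identical copies.

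Symbols came from GENCODE 29 and the gene name tables, which paired 51996 of 57905 gene IDs with a symbol. The members, the lists around them and the tests were chosen with earlier results of these data known. Counts were scaled by TMM and tested with edgeR 4.0.16 (quasi-likelihood F test, R 4.3.3) after the filterByExpr filter, which left 16916 genes. All 9 libraries shared 1 fit, with contrasts of shAKR1B1 and shSORD against control and against each other, and p-values were adjusted by Benjamini and Hochberg over all tested genes within each contrast. The biological coefficient of variation was 6.59%. Counts were also simulated for shAKR1B1 against control over 16916 genes, with 100 genes changed at each of 2 sizes and 1 common spread for all genes. The same steps called 59% of genes changed by 0.3 and 100% of genes changed by 1 on the log2 scale. In the data 57.4% of genes were called in this comparison and spread differed between genes, so these shares are not the power of the reported tests.

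Named genes were AKR1B1, SORD, the SDH genes, CYC1, CYCS and, in each comparison, up to 10 called members with the largest rise and 10 with the largest fall among those with a mean of at least 50 counts and no overlap between groups. Further members, paralogs, and genes of the other lists were named after their values were seen, to account for each complex. Alternatives were RLE, library-total and upper-quartile scaling, no filter, a stricter filter of 1 CPM in 3 libraries, DESeq2 1.42.0, the compared groups alone, a replicate block, mitochondrially encoded genes left out, and each library left out in turn. Exon sharing and transcript lengths came from GENCODE 29 and promoter windows from RefSeq, both on GRCh38, and were joined to counts by gene, not by coordinate. Same-numbered libraries of the 2 knockdowns deviated from their group means together (correlations of 0.10 to 0.19, each of 3 over 0.1). The numbers may therefore pair them, a reading from the data and not from the labels. Same-numbered libraries of either knockdown and control did not (-0.03 to 0.03). The reported tests, also those between the knockdowns, do not use this pairing, which enters only the replicate block. Counts over members include 1 gene whose values are not reported here, and 1 leukocyte marker was left out.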

Additional observations from a re-analysis of the deposited data

Results flagged for a closer look

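For 13 respiratory chain genes the fold changes of the knockdowns against control had opposite signs and the difference between the knockdowns itself passed edgeR's test. The share of all tested genes that meet both conditions was not computed, so nothing is read from this count. Some signs rest on very small log2 fold changes, such as -0.0017 for NDUFB5 and -0.023 for NDUFA5 with shSORD. The difference, as log2 of shAKR1B1 over shSORD, was 0.35 for NDUFA5 (adjusted p = 0.0032), 0.28 for NDUFB5 (adjusted p = 0.00285), 0.26 for NDUFS4 (adjusted p = 0.00318), 0.21 for NDUFB3 (adjusted p = 0.0108) and 0.18 for NDUFA4 (adjusted p = 0.0135) among genes with complex I names. In complex II it was 0.36 for SDHD (adjusted p = 0.0466). In complex III it was 0.25 for UQCRB (adjusted p = 0.00674) and 0.24 for UQCRC2 (adjusted p = 0.00119). In complex IV it was 0.23 for COX7A2 (adjusted p = 0.00292), 0.23 for COX7B (adjusted p = 0.00554), 0.25 for COX7C (adjusted p = 0.000725) and 0.18 for COX6B1 (adjusted p = 0.0315). In complex V it was 0.32 for ATP5F1C (adjusted p = 0.000212). Of the fold changes with shSORD only those of UQCRC2 and COX7B passed the test against control, as falls, with log2 fold changes of -0.12 and -0.17, and with shAKR1B1 those of COX7B, NDUFA4, NDUFB3, SDHD and COX6B1 did not pass it, while the other 8 passed it as rises. The differences kept their call in all 15 alternatives except those of NDUFB3 (14), COX6B1 (11) and SDHD (8). The difference of NDUFB3 was lost without shAKR1B1 replicate 2, that of COX6B1 without shAKR1B1 replicate 3 or shSORD replicate 1, and that of SDHD in 4 of 6 fits that left out a library.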

How the results depend on the processing

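Of 218 single-gene values reported as calls or named without one, 53 lost their call in at least 1 alternative and 0 changed sign while called. Of the 26 falls and 10 rises with shAKR1B1, 17 and 7 kept their call in all alternatives run for them. With shSORD 28 of 41 falls and 1 of 2 rises did, and between the knockdowns 14 of 28 higher calls and 0 of 1 lower call did.

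The median log2 fold change of members with shAKR1B1 (-0.08) was -0.068 with RLE scaling, -0.035 with library totals, -0.018 with upper-quartile scaling, -0.090 without a filter, -0.046 with the stricter filter, -0.063 without mitochondrially encoded genes and -0.059 with the compared groups alone. With the compared groups alone 18 members rose and 31 fell with shAKR1B1, against 33.8% and 33.7% of all genes. With shSORD 3 rose and 33 fell there, against 27.1% and 26.2%. Between the knockdowns 18 were higher with shAKR1B1 in such a fit. Libraries of the groups differed in spread. The median coefficient of variation over 72 members was 5.99% with shSORD, 3.26% with shAKR1B1 and 2.80% in control cells. The shared fit gives each gene 1 spread for all groups, so its p-values with shSORD may be too small. The median with shSORD (-0.14) was -0.078 with library totals and -0.071 with upper-quartile scaling. The rises with shSORD (2) numbered 5 under both of these scalings, 3 under the compared groups alone and 1 in DESeq2. Members lower with shAKR1B1 than with shSORD (1) numbered 2 with library totals, with upper-quartile scaling and without a filter. The cause was not tested.

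Leaving out each library in turn gave 7 to 12 rises, 19 to 21 falls and medians of -0.087 to -0.048 with shAKR1B1. It gave 1 to 3 rises, 30 to 49 falls and medians of -0.19 to -0.13 with shSORD. Between the knockdowns it gave 18 to 35 higher, 0 to 4 lower and medians of 0.093 to 0.15.

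With the replicate block, which pairs the knockdown libraries but has no such basis for control, 12 members rose and 26 fell with shAKR1B1, 3 rose and 42 fell with shSORD, and 30 were higher and 2 lower between the knockdowns. Between the knockdowns it ended the call of ATP5F1A (adjusted p = 0.0508 in edgeR), added calls for NDUFB4, NDUFC2, UQCRQ and COX6B2, and changed no other member's call. Against control it ended the fall of UQCRC2 with shSORD (adjusted p = 0.0618 in edgeR), kept 40 of the 41 falls with shSORD, and added calls with both knockdowns.

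DESeq2 called 11 rises and 23 falls with shAKR1B1, 1 and 40 with shSORD, and 29 higher and 1 lower between the knockdowns. The 5 members under 10 CPM had a mean of 19.5 to 227 counts in the groups compared, and precision there is limited by depth.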

Other observations

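Single nuclear genes with products in mitochondria, picked after their values were seen, moved in both directions. Among mitochondrial ribosomal protein genes MRPS17 fell at a log2 fold change of -0.71 with shAKR1B1 and -1.01 with shSORD, and MRPL12, which also binds the mitochondrial RNA polymerase, at -0.67 and -0.88. The mitochondrial DNA packaging factor TFAM fell at a log2 fold change of -0.44 with shAKR1B1 (adjusted p = 0.0017) and -0.32 with shSORD (adjusted p = 0.0134), both in edgeR's test. LONP1, the protease of the mitochondrial matrix, fell at log2 fold changes of -0.70 and -0.51. PDK1, the kinase that holds back pyruvate dehydrogenase, had 18.7, 17.0 and 16.5 CPM with shAKR1B1 and 12.2, 10.996 and 12.6 CPM with shSORD, against 19.6, 18.6 and 18.4 CPM in control cells, and fell with shSORD at a log2 fold change of -0.66 (adjusted p = 4.75e-06). The electron entry genes SQOR, whose product takes electrons from sulfide, and ETFA rose with shAKR1B1 on the log2 scale by 0.19 and 0.13. Both fell with shSORD, at log2 fold changes of -0.27 and -0.21.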
